A study of Mus musculus with 2 samples.

Results

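The cells described here are the B16 F10 cells that the authors' cell table calls S, the phase in which DNA is copied, compared between high and low pigment. They were chosen by the authors' phase column, which rests on measured expression scores, and they number 1184 of 4036 cells in all. The low pigment library held 705 of them, which was 37.1% of its 1900 cells (95% exact binomial interval 34.9 to 39.3). The high pigment library held 479, which was 22.4% of its 2136 cells (20.7 to 24.3). B16 F10 comes from a melanoma of the mouse and forms melanin in culture, although the labels give its cell type as melanocytes. Both groups are cultures of this line with no treatment named, seeded at 100 cells per cm2 in DMEM with fetal bovine serum and trypsinised on day 7. They differ by a flow cytometry gate on side scatter, the light a cell scatters sideways, which served as the measure of pigment. Each gate gave 1 droplet library of 3' RNA tags counted as unique molecular identifiers (UMIs), so no test between the groups was possible. A bracketed range after a fold is a 95% exact interval for counting error in the summed UMIs and does not cover the spread between cultures or sorts.

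During S phase, replication origins licensed in G1 are fired, polymerases and clamp loaders copy the DNA, ribonucleotide reductase and its partners supply the deoxynucleotides, and new histones are made to package the product. The transcripts of many of these proteins are made under E2F factors and peak as cells enter S phase. Pigment cells make melanin in melanosomes, with tyrosinase and its relatives as the enzymes and MITF as the factor that switches their genes on. The questions here are which genes differed between high and low pigment while cells were in S phase, and which of those differences were not seen in G1 and G2M cells.

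The S cells of both libraries carried melanocyte lineage transcripts. All 10 markers of that lineage were detected in both, and they summed to 13138 counts per 1000000 UMIs (CPM) in low pigment and 16768 in high pigment S cells. Markers of other cells were scarce. Leukocyte markers gave 43 and 6 UMIs in all, with Ptprc at 0 in both, fibroblast markers 20 and 17, keratinocyte markers 4 and 0, and erythroid markers 4 and 1. Of the endothelial markers, Pecam1 alone gave 361 UMIs in low and 14 in high pigment S cells, while Kdr and Emcn were at 0. The Schwann cell list, which melanoma cells partly share, gave 227 and 148 CPM and was led by Mbp. No barcode sequence occurred in both libraries among the cells of the table.

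High pigment S cells were shallower. Their median was 11753 UMIs per cell against 16663 in low pigment, and the 479 cells summed to 6054328 UMIs against 12428281. The sources used here do not say whether depth was equalised between the libraries, so less RNA per cell and less sampling cannot be told apart, and values below are shares of all UMIs unless said otherwise. The number of genes seen per cell was 4327 in low and 3522 in high pigment at the median, and 2741 and 2691 after each cell was thinned to 7500 UMIs. The median share of mitochondrially encoded UMIs was 5.56% in low and 5.09% in high pigment, and the share of ribosomal protein UMIs 21.6% and 21.0%.

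The cells called S differed between the libraries in their G2M score. The S score, which together with the G2M score decided the call, had medians of 0.178 in low and 0.167 in high pigment. The G2M score was above 0 in 192 of 705 low pigment S cells (27.2%, 24 to 30.7) and in 211 of 479 high pigment S cells (44.1%, 39.5 to 48.6). Its medians were −0.0898 and −0.0122. Cells within 0.05 of the limit to G2M made up 45 of the low pigment S cells (6.38%) and 64 of the high pigment ones (13.4%). In those cells a published set of S genes took a median 0.427% and 0.413% of UMIs, and in the G2M cells just beyond the limit 0.440% and 0.360%. At the other limit, S cells with an S score under 0.05 had 0.333% in both libraries, and G1 cells with a score over −0.05 had 0.280% and 0.273%. When phases were called again from the published gene sets, 438 of the 705 low pigment S cells and 199 of the 479 high pigment S cells stayed S, and 220 and 271 became G2M. In the authors' clusters, 490 low pigment S cells (69.5%) lay in cluster 2 and 193 (27.4%) in cluster 1, while 460 of the high pigment S cells (96.0%) lay in cluster 0. The part that position within S phase has in the differences below was not tested. The list medians, the ratios of 44 named genes and the S-alone calls were also recomputed over strata of the G2M score. Ratios of other list members, such as Polk and Gtse1, and the shares per cell were not.

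**Figure D1:**
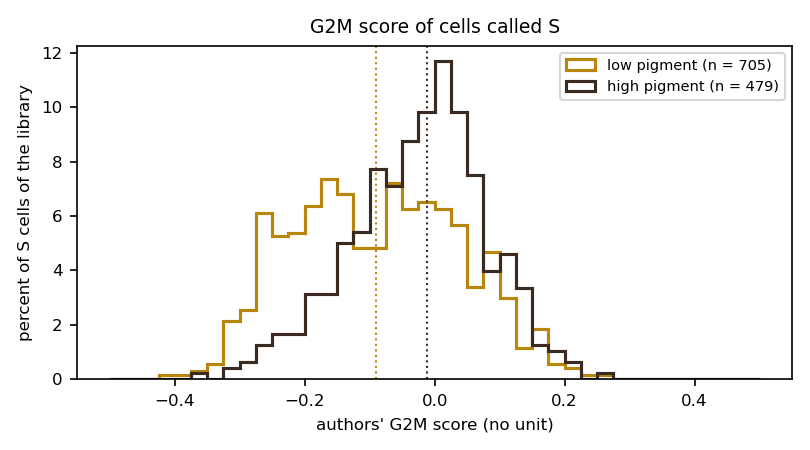
Authors' G2M score of the cells called S, as the percent of each library's S cells in each score bin, with dotted lines at the medians (−0.0898 for 705 low pigment cells, −0.0122 for 479 high pigment cells). The high pigment outline lies further to the right, with 44.1% of its cells above 0 against 27.2%.

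Of 7871 genes with a mean of at least 10 CPM over the S cells of both libraries, 329 (4.18%) were at least 1.5-fold higher in high pigment S cells and 659 (8.37%) at least 1.5-fold lower. The median gene stood at −0.05 on the log2 scale, and when that gene was set to no difference the counts were 427 and 556. The same fold was passed by 326 (4.14%) and 752 (9.55%) genes in G1 cells and by 274 (3.48%) and 755 (9.59%) in G2M cells of the same libraries. Gene lists below are counted at a smaller size, at least 25% higher or at least 20% lower, which are the same ratio in opposite directions. In S cells 1067 genes (13.6%) were that much higher and 1750 (22.2%) that much lower. In G1 cells these were 981 (12.5%) and 2026 (25.7%), and in G2M cells 883 (11.2%) and 2043 (26.0%).

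Most of the genes past 1.5-fold in S cells also differed the same way in the other phases. Of the 329 higher genes, 224 (68.1%) were at least 25% higher in both G1 and G2M cells, and 115 (35.0%) at least 1.5-fold. Of the 659 lower genes, 544 (82.5%) were at least 20% lower in both, and 341 (51.7%) at least 1.5-fold. Genes past 1.5-fold in S cells while inside the 25% and 20% limits or on the other side in both other phases, with a counting interval of the gap clear of 0 for both, were 20 higher (0.254%) and 18 lower (0.229%). By the same rule 28 (0.364%) and 21 (0.273%) genes stood out in G1 cells alone, and 5 (0.0635%) and 42 (0.533%) in G2M cells alone.

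Targets of NRF2 and pigment lineage factors were among the 12 genes with the largest ratios and a mean of at least 50 CPM. Irak2, a kinase of interleukin-1 and Toll-like receptor signalling, went from 22.2 CPM in low to 78.0 in high pigment S cells, 3.51-fold higher (3.02 to 4.09), against 2.16-fold in G1 and 3.09-fold in G2M cells. Hmox1, which encodes the heme-degrading enzyme heme oxygenase 1, stood at 114 and 315 CPM, 2.75-fold higher (2.57 to 2.95), against 2.34-fold and 2.04-fold. Gclm, the modifier subunit of the enzyme that starts glutathione synthesis, stood at 232 and 519 CPM, 2.24-fold higher (2.13 to 2.36). Lgals3, which encodes the sugar-binding protein galectin-3, stood at 305 and 819 CPM, 2.69-fold higher (2.57 to 2.80). All of these were higher in each phase. For Hmox1, Lgals3 and Gclm the S ratio was the largest of the 3, with counting intervals of both gaps clear of 0, whereas for Irak2 the gap between S and G2M cells was 0.18 on the log2 scale (−0.14 to 0.51), within counting error.

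Mitf and the coactivator gene Ppargc1a belonged to the same group. Mitf went from 177 to 429 CPM, 2.42-fold higher (2.29 to 2.56), against 2.0-fold in G1 and 2.25-fold in G2M cells. Counted per cell rather than as a share, Mitf had a mean of 3.12 UMIs in low and 5.42 in high pigment S cells, so it was higher on that scale too. Ppargc1a, a regulator of mitochondrial genes, stood at 82.3 and 217 CPM, 2.64-fold higher (2.43 to 2.87). The leading genes also held Tnrc6a of microRNA silencing at 2.68-fold, the caspase-8 inhibitor Cflar at 2.37-fold, the small GTPase Rhod at 2.33-fold, the nuclear pore gene Nup62 at 2.30-fold and the splicing factor Nsrp1 at 2.29-fold.

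**Figure D2:**
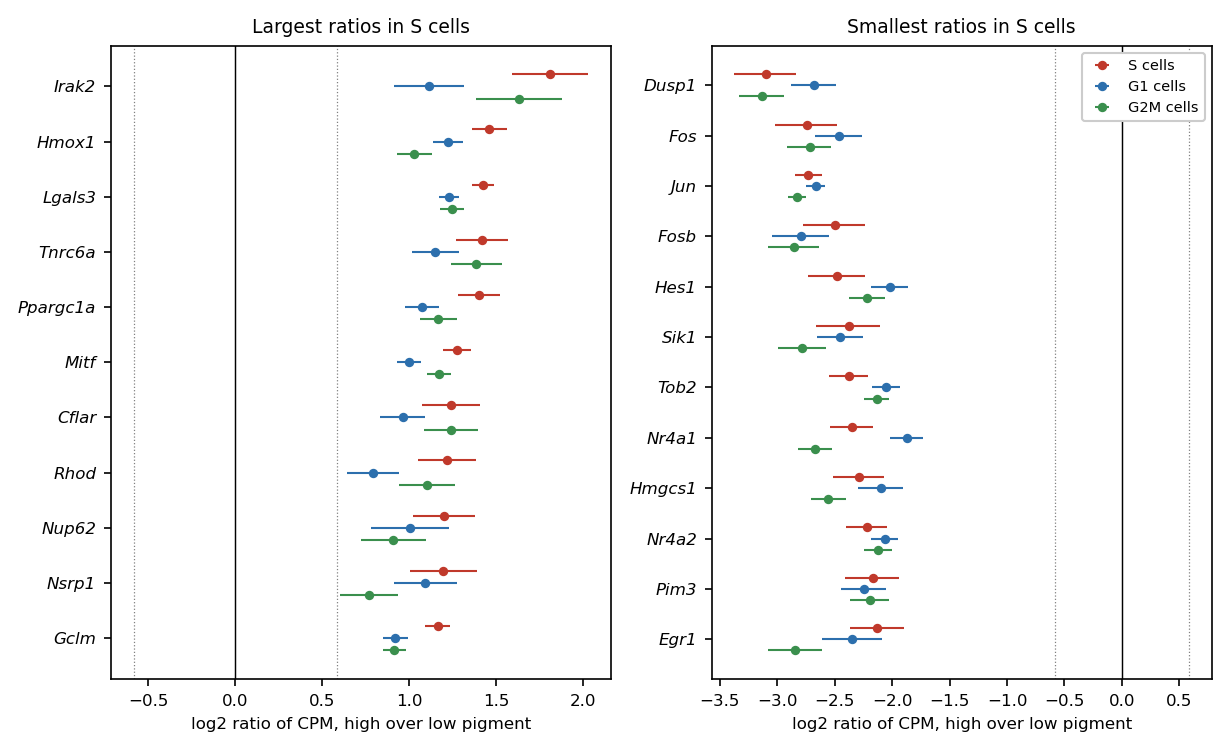
Log2 ratio of CPM, high over low pigment, for genes with the largest ratios (left) and the smallest (right) in S cells, with G1 and G2M cells of the same libraries beside them. Bars are 95% counting intervals, dotted lines mark 1.5-fold, and all genes drawn lie on the same side of 0 in the 3 phases.

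On the lower side the list was led by immediate early genes, which cells transcribe within minutes of a growth or stress signal without making new protein first. Dusp1, a phosphatase that switches off MAP kinases, was at 172 CPM in low and 20.2 in high pigment S cells, 8.55-fold lower (7.12 to 10.3), against 6.41-fold in G1 and 8.77-fold in G2M cells. Jun, a subunit of the AP-1 transcription factor, was at 685 and 103 CPM, 6.62-fold lower (6.11 to 7.20), and its mean per cell was 12.1 and 1.31 UMIs. Fos, its partner, was at 137 and 20.5 CPM, 6.69-fold lower (5.57 to 8.09), and Fosb 5.65-fold. Nr4a1, an orphan nuclear receptor, was 5.10-fold lower in S cells, 3.66-fold in G1 and 6.35-fold in G2M cells. Hes1, a repressor downstream of Notch, was 5.58-fold lower in S cells, against 4.06-fold and 4.65-fold. Egr1, a zinc finger factor, was 4.37-fold lower, which was less than the 5.08-fold in G1 and the 7.16-fold in G2M cells.

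Sik1, Tob2, Nr4a2 and Pim3 made up the rest of this group, at 5.19-fold, 5.18-fold, 4.66-fold and 4.50-fold lower. Of the 31 measured members of the immediate early list, 28 were at least 20% lower in high pigment S cells and 2 higher, where 22.2% and 13.6% of all genes were. The median was −1.70 on the log2 scale, against −1.83 in G1 and −1.68 in G2M cells. Klf2, a Krüppel-like factor, was at 19.5 and 2.31 CPM, 8.42-fold lower (4.92 to 15.6). Both exceptions were phosphatases of the MAP kinase pathway, Dusp6 at 1.48-fold higher and Dusp2 at a log2 ratio of 0.47.

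The promoters of Dusp1 and Klf2 are printed because these members had the largest differences in the list that the promoter table holds. They are RefSeq sequences of build GRCm38.p6, from 250 bases before to 50 after the transcript start, read 5′ to 3′ on the gene's strand. Dusp1 is on the minus strand at chr17:26508423-26508722 and Klf2 on the plus strand at chr8:72318812-72319111. Capitals mark TGACGTCA, the full cyclic AMP response element, and TGACG, its shorter core, which also lies within the full element, on either strand.
Dusp1: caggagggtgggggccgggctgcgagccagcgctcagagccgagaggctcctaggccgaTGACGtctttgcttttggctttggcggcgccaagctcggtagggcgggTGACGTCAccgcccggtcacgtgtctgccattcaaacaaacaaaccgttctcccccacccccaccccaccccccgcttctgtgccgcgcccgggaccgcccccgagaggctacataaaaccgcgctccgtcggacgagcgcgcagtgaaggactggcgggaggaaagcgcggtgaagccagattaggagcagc
Klf2: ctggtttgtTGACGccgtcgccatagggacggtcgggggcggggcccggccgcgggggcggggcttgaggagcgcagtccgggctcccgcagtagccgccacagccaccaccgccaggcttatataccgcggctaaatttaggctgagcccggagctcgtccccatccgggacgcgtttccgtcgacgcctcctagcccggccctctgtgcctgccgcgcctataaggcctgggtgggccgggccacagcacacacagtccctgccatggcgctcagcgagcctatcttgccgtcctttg
The Dusp1 window held the full element once and 3 matches of TGACG, and the Klf2 window held TGACG once. Of the 31 members, 23 had a promoter in the table. TGACG was in 12 of these 23 (52.2%), where 20.8% of all 32851 promoter entries of that length held it on either strand. The full TGACGTCA was in 2 of the 23, Btg2 and Dusp1, against 1.79% of all entries. The serum response element, searched for as the CArG box, was in 1 of the 23, Zfp36, against 1.63%, and TATAAA was in 5 against 13.6%. These are matches of letters in the window, not measured binding.

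Genes of cholesterol synthesis and uptake were the other list lower nearly throughout. Of 23 measured members 21 were at least 20% lower in high pigment S cells and none higher, where 22.2% and 13.6% of all genes were. The median log2 ratio was −0.77, against −0.69 in G1 and −0.97 in G2M cells. Hmgcs1, which makes the precursor of mevalonate, was at 149 CPM in low and 30.6 in high pigment S cells, 4.88-fold lower (4.19 to 5.71). Idi1, which interconverts the isoprene units of the pathway, was at 142 and 58.8 CPM, 2.42-fold lower (2.16 to 2.72). For Hmgcs1 the difference was 4.28-fold in G1 and 5.87-fold in G2M cells, and for Idi1 2.48-fold and 2.77-fold.

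The promoters of Hmgcs1 and Insig1 are printed because among the members in the table they had the largest differences. Insig1, which holds back the sterol sensor, was at 93.4 and 36.2 CPM, 2.58-fold lower (2.23 to 3.0). Both lie on the plus strand of GRCm38.p6, Hmgcs1 at chr13:119690101-119690400 and Insig1 at chr5:28071162-28071461, and capitals mark CCAAT and TGACG on either strand.
Hmgcs1: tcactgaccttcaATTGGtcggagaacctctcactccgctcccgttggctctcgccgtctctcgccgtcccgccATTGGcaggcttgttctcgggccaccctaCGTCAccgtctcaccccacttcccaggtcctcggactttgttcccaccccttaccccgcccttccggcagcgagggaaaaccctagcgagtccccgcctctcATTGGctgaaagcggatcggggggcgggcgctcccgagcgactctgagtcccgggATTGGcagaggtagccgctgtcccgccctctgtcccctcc
Insig1: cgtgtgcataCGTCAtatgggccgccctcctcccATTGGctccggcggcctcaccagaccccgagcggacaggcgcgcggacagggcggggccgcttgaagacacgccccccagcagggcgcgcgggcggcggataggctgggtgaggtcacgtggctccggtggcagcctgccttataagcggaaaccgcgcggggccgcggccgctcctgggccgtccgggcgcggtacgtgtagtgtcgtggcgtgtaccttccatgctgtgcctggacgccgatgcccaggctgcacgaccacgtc
The end of the Hmgcs1 window, unlike that of Insig1, was not found near the start of a reference transcript of the gene, so its transcript start is less certain. The Hmgcs1 window held CCAAT 4 times and the Insig1 window once, and each held TGACG once. Of the 23 members, 16 had a promoter in the table, and CCAAT was in 14 of them (87.5%), against 37.4% of all entries and 10 of the 23 immediate early promoters. TGACG was in 8 of the 16 (50%), against 20.8% of all entries and 12 of the 23 immediate early promoters, so it did not set the 2 lists apart. The sterol regulatory element, the site of the sterol-sensing SREBP factors, was searched for in 1 exact form and was in none of the 16, against 0.0913% of all entries. TATAAA was in none of the 16 either, nor were TGACGTCA and the CArG box. A missing match says only that these letters were not in the window.

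Fatty acid synthesis genes were lower as well, 9 of 12 by at least 20%, with none higher and a median of −0.43. Elovl6, an enzyme that lengthens fatty acids, was at 38.9 and 16.2 CPM, 2.41-fold lower (1.93 to 3.02) in S cells, against 1.78-fold in G1 and 1.80-fold in G2M cells. Scd2, a desaturase, was 1.5-fold lower (1.42 to 1.58).

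Genes of melanin synthesis and the melanosome were higher in part. Of 16 measured members 9 were at least 25% higher and 1 was at least 20% lower, where 13.6% and 22.2% of all genes were. The median log2 ratio was 0.39, against 0.18 in G1 and 0.33 in G2M cells. Ptgds, a prostaglandin synthase that melanocytes express, stood at 1474 and 2428 CPM, 1.65-fold higher (1.61 to 1.68). Tspan10, a tetraspanin, was 1.58-fold higher (1.43 to 1.75), and Trpm1, the melastatin channel, went from 104 to 163 CPM, 1.56-fold higher (1.44 to 1.70), against 1.24-fold in G1 and 1.34-fold in G2M cells. Dct, dopachrome tautomerase, stood at 5640 and 7572 CPM, 1.34-fold higher (1.33 to 1.36). Mlana, a melanosome protein, was also 1.34-fold higher.

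Other genes of the same list did not share this. Tyr, the rate-limiting enzyme of melanin synthesis, stood at 113 and 117 CPM, a ratio of 1.03 (0.941 to 1.13). Pmel, which forms the fibrils on which melanin is laid down, stood at 1405 and 1413 CPM in S cells, a ratio of 1.01 (0.980 to 1.03), against 0.775 in G1 cells. Tyrp1 stood at 1917 and 2333 CPM, a ratio of 1.22. Mc1r, the melanocortin receptor, was at 37.9 and 26.9 CPM, 1.41-fold lower (1.18 to 1.69). Counted per cell, without dividing by depth, Dct had a mean of 99.4 UMIs in low and 95.7 in high pigment S cells, and Pmel 24.8 and 17.9. The higher share of Dct in high pigment S cells was therefore not a higher number of UMIs per cell.

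Among the transcription factors of the melanocyte lineage, 6 of 12 were at least 25% higher and 2 lower. Beside Mitf and Ppargc1a, Sox10, the neural crest factor that acts on Mitf, went from 92.6 to 179 CPM, 1.94-fold higher (1.78 to 2.10), against 1.70-fold in G1 and 1.73-fold in G2M cells. Tfe3, a relative of MITF, was at 28.6 and 18.5 CPM, 1.55-fold lower (1.2 to 1.9), and Zeb2 had a log2 ratio of −0.51. Sox9, Tfap2a and Snai2 had log2 ratios of 0.55, 0.54 and 0.42, and Pax3 one of −0.09. The list median was 0.27, and −0.02 in cells thinned to 7500 UMIs. For melanosome transport, 5 of 19 members were higher and 1 lower, where 13.6% and 22.2% of all measured genes were. The median of that list was 0.04. Bloc1s4, a subunit of a cargo-sorting complex, was 1.80-fold higher (1.46 to 2.21), Mlph, the linker of melanosomes to myosin, 1.61-fold (1.48 to 1.76), and the GTPase gene Rab27a 1.53-fold (1.30 to 1.79).

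**Figure D3:**
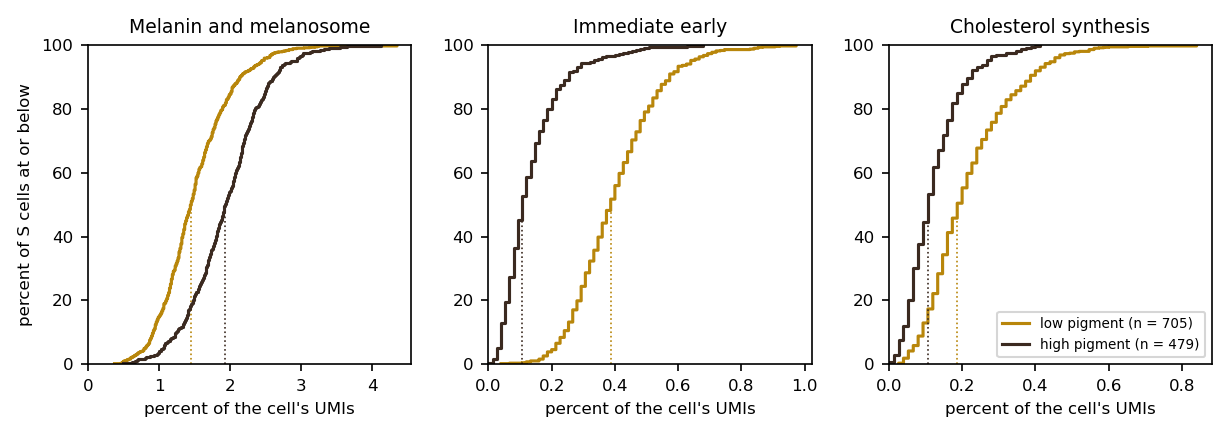
Percent of S cells at or below each share of a cell's UMIs, for 3 gene lists, after each cell was thinned to 7500 UMIs, with dotted lines at the medians. The median melanin share was 1.45% in 705 low and 1.93% in 479 high pigment cells, the immediate early share 0.387% and 0.107%, and the cholesterol share 0.187% and 0.107%.

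The differences in the melanin, immediate early and cholesterol lists ran through most S cells rather than a few. With every cell thinned to 7500 UMIs, 81.0% of high pigment S cells (77.2 to 84.4) lay above the low pigment median of 1.45% of UMIs from melanin genes, and 81.8% did so without thinning. For the immediate early list 3.34% of high pigment S cells (1.92 to 5.37) lay above the low pigment median of 0.387%, and for the cholesterol list 14.8% (11.8 to 18.3) lay above 0.187%. The plot of these shares shows melanin distributions that overlap widely and immediate early distributions that barely do. Free RNA in the droplets was not estimated.

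Targets of p53, the factor that answers DNA damage, were higher in 9 of 15 measured members and lower in 2. Of all measured genes 13.6% were higher and 22.2% lower. The median log2 ratio was 0.51 in S cells, 0.29 in G1 and 0.19 in G2M cells. Cdkn1a, the Cdk inhibitor p21, went from 290 to 644 CPM, 2.23-fold higher (2.13 to 2.33) in S cells, and its ratio was 2.37 in G1 and 1.51 in G2M cells. Polk, a polymerase that copies past damaged bases, went from 18.7 to 45.6 CPM, 2.43-fold higher (2.04 to 2.91), against 1.51-fold in G1 and 1.48-fold in G2M cells. Its gap to G1 was 0.69 on the log2 scale (0.30 to 1.08) and to G2M 0.72 (0.35 to 1.09), so Polk differed in every phase and most in S cells.

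Mdm2, the ligase that degrades p53, was at 118 and 176 CPM, 1.49-fold higher (1.38 to 1.62) in S cells, against 1.20-fold in G1 and 1.04-fold in G2M cells. Eda2r, a death receptor, was 1.99-fold higher (1.53 to 2.57), Phlda3, an inhibitor of Akt, 1.84-fold (1.74 to 1.95), and Ccng1, cyclin G1, 1.65-fold (1.53 to 1.78). Bbc3, which encodes the death factor PUMA, was 1.5-fold lower (1.10 to 2.06), and Gdf15 had a log2 ratio of −0.46. Of high pigment S cells 79.3% lay above the low pigment median share of p53 target UMIs. Of the targets of NRF2, the factor that answers oxidative stress, 8 of 22 were higher and 2 lower, with Hmox1 and Gclm ahead and the median at 0.08.

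The replication machinery itself differed little in S cells. Many of its genes are in the published phase sets, and which genes the authors' phase call used is not stated. The call may have rested on them, so these values are descriptions only. Of 25 origin licensing and firing genes 4 were higher and 3 lower in S cells, where 13.6% and 22.2% of all measured genes were. Their median log2 ratio was near 0 in S cells, against 0.32 in G1 and −0.30 in G2M cells. Mcm5, a subunit of the replicative helicase, stood at 140 and 139 CPM, and Mcm2 at 185 and 170. Gins3, of the complex that holds the helicase together, was 1.67-fold higher (1.27 to 2.19), while its partner Gins2 was 1.59-fold lower (1.31 to 1.94) and the fork protector Timeless 1.47-fold lower (1.22 to 1.78). In S cells the median origin gene was 3.47 times its G1 level in low pigment and 3.34 times in high pigment.

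Of 26 polymerase and fork factor genes 2 were higher and 7 lower, where 13.6% and 22.2% of all measured genes were. Their median was −0.10, against 0.01 in G1 and −0.47 in G2M cells. Pcna, the sliding clamp, was at 332 and 313 CPM. Uhrf1, which carries DNA methylation across the fork, was at 244 and 135 CPM, 1.81-fold lower, and Pold1, the catalytic subunit of polymerase delta, at 51.4 and 28.4 CPM, 1.81-fold lower (1.53 to 2.15). Fen1, the flap nuclease of Okazaki fragments, was 1.53-fold higher (1.33 to 1.76) in S cells, against 2.72-fold in G1 and 1.16-fold in G2M cells.

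Deoxynucleotide supply genes were higher in none of 18 cases and lower in 6, where 13.6% and 22.2% of all measured genes were. Their median was −0.15, against 0.06 in G1 and −0.48 in G2M cells. Rrm2, the S phase subunit of ribonucleotide reductase, stood at 196 and 191 CPM. Rrm2b, its p53-induced relative, had a log2 ratio of −0.56 and Tyms one of 0.26. Histone chaperones had a median of −0.11, with 1 of 14 higher, Asf1a at 0.52, and 2 lower, Nasp at −0.49 and Asf1b at −0.33.

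Replication-dependent histone genes were the exception within this group. Their messages normally carry no poly(A) tail, so a poly(A) method such as this one sees only the minor tailed forms. Of 12 measured members 9 were at least 20% lower in high pigment S cells and none higher, where 22.2% and 13.6% of all measured genes were. The median was −0.95, against −0.29 in G1 and −1.22 in G2M cells. Hist1h2ac was at 23 and 6.94 CPM, 3.32-fold lower (2.39 to 4.70), and Hist1h4h at 20.8 and 10.7 CPM, 1.94-fold lower (1.47 to 2.59), while in G1 cells the ratio of Hist1h4h was 1.03. The median was −0.48 with phases called again and −0.50 in S cells with a G2M score of 0 or less. Counts of these genes are uncertain because the gene copies are nearly alike. Slbp, which binds the histone message stem-loop, was at 291 and 219 CPM, 1.33-fold lower (1.2 to 1.4) in S cells, against 2.40-fold in G1 and 2.35-fold in G2M cells.

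**Figure D4:**
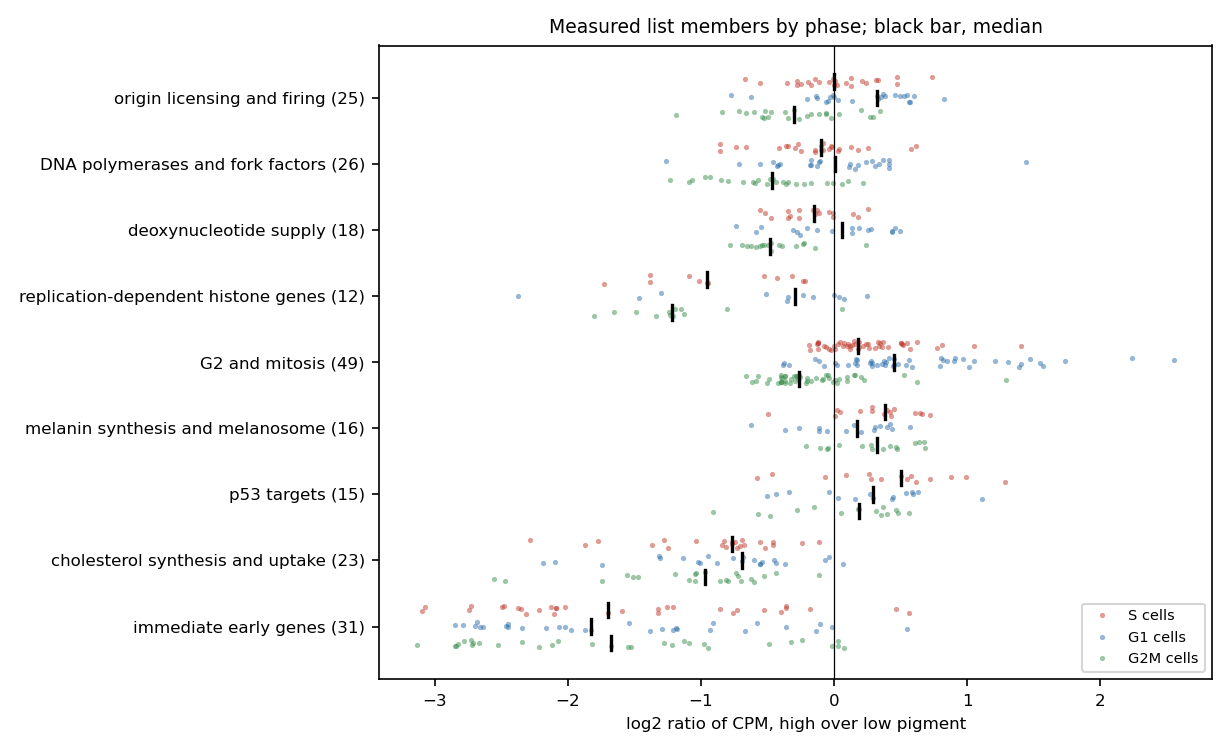
Log2 ratio of CPM, high over low pigment, for each measured member of 9 gene lists (number of members in brackets) in S, G1 and G2M cells, with black bars at the medians. Origin genes centre near 0 in S cells, 0.32 in G1 and −0.30 in G2M cells, while the immediate early medians lie at −1.70, −1.83 and −1.68.

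Checkpoint and repair genes had 4 of 22 members higher and 3 lower, where 13.6% and 22.2% of all measured genes were, and a median of 0.07. Wee1, the kinase that restrains Cdk1, was at 21.7 and 39.5 CPM, 1.82-fold higher (1.52 to 2.17), and Exo1, a nuclease of resection and mismatch repair, 1.56-fold higher (1.31 to 1.85). Rad18, a ligase that marks stalled clamps, was at 156 and 102 CPM, 1.53-fold lower (1.40 to 1.68), against 1.99-fold in G1 and 1.89-fold in G2M cells. Of the E2F, cyclin and Cdk regulator list 7 of 26 were higher and 7 lower, beside the same 13.6% and 22.2% of all genes. Its median was 0.04, and −0.06 over strata of the G2M score.

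The cyclins of S phase entry went apart. Ccne2 was at 26.6 and 47.1 CPM, 1.77-fold higher (1.5 to 2.08) in S cells, with ratios of 1.13 in G1 and 0.873 in G2M cells. Ccne1, the other E-type cyclin, was at 96.0 and 79.6 CPM, 1.21-fold lower (1.08 to 1.34), against 1.81-fold in G1 and 2.66-fold in G2M cells. Skp2, which marks the inhibitor p27 for degradation, was at 15.9 and 32.2 CPM, 2.03-fold higher (1.66 to 2.49), and Ccnd1, cyclin D1, at 234 and 175 CPM, 1.34-fold lower (1.24 to 1.43). Rb1, the retinoblastoma gene, was 1.52-fold lower (1.12 to 2.10).

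Genes of G2 and mitosis were at least 25% higher in high pigment S cells in 17 of 49 measured members and lower in none. Of all measured genes 13.6% were higher and 22.2% lower. The list median was 0.18, against 0.45 in G1 and −0.26 in G2M cells. Of these 49, 42 are in the published phase sets. High pigment S cells also had a larger share of cells with a G2M score above 0. Over strata of that score the median was −0.02. A score built from such transcripts would even out the list by itself, so this value does not explain the difference, whose cause was not tested. Gtse1, a microtubule protein, was at 24 and 63.4 CPM, 2.65-fold higher (2.27 to 3.09), and Ccnf, cyclin F, at 15.7 and 32.5 CPM, 2.07-fold higher (1.69 to 2.54). Mki67, the proliferation antigen, was at 145 and 223 CPM, 1.54-fold higher (1.43 to 1.65) in S cells and 1.88-fold in G1 cells, with a ratio of 0.758 in G2M cells.

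The 38 genes past 1.5-fold in S cells alone were mostly low in expression. Of them 32 had a mean below 50 CPM, and their median mean was 21.6 CPM, against 37.1 for all measured genes. Only Ccne2 among them belongs to the published phase sets. Each was recomputed in 7 other ways, such as with thinned cells or with phases called again, and none of the 38 met the rule in all 7, so no gene is given as settled. Ccne2, Cck, D5Ertd579e, Mob3b, Ccn2 and Naa25 were among those that met it in 6 of the 7.

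On the lower side the named genes were low in expression. Ccn2, a matricellular growth factor, was at 17.9 and 10.6 CPM, 1.69-fold lower (1.27 to 2.27), with ratios of 0.909 and 1.02. Mob3b was 1.78-fold lower (1.34 to 2.40), Nat10, an RNA acetyltransferase, 1.74-fold (1.35 to 2.27), and Naa25, a subunit of a protein acetyltransferase, 1.57-fold (1.32 to 1.87).

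Endog, a mitochondrial nuclease, was 1.52-fold lower (1.15 to 2.04) in S cells and on the other side in G2M cells, at a ratio of 1.45. Sco1, which helps load copper into cytochrome oxidase, was 1.71-fold lower (1.26 to 2.35) in S cells and had a ratio of 1.40 in G1 cells. Both were low, Endog at 16.6 and 10.9 CPM and Sco1 at 15.5 and 9.08 CPM. Other named genes on this side were Lrrk1 at 1.66-fold, 2310022B05Rik at 1.73-fold, Fam219a at 1.52-fold and Trmt61a at 1.65-fold lower.

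On the higher side Cck, which encodes the peptide hormone cholecystokinin, had the widest gap. It was at 12.2 and 35.3 CPM, 2.89-fold higher (2.34 to 3.58), with ratios of 0.978 in G1 and 1.03 in G2M cells. The 10 cells with the most held 90.1% of its UMIs in low and 92.5% in high pigment S cells, the highest single cells had 43 and 42 UMIs, and after thinning 16 cells of each library had any. The value of Cck thus rests on a handful of cells, which the counting interval does not cover. Ccne2 was seen in 136 of 479 high pigment S cells (28.4%) and 116 of 705 low pigment ones (16.5%) after thinning to 7500 UMIs. That thinning was also the setting in which Ccne2 did not meet the S-alone rule.

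**Figure D5:**
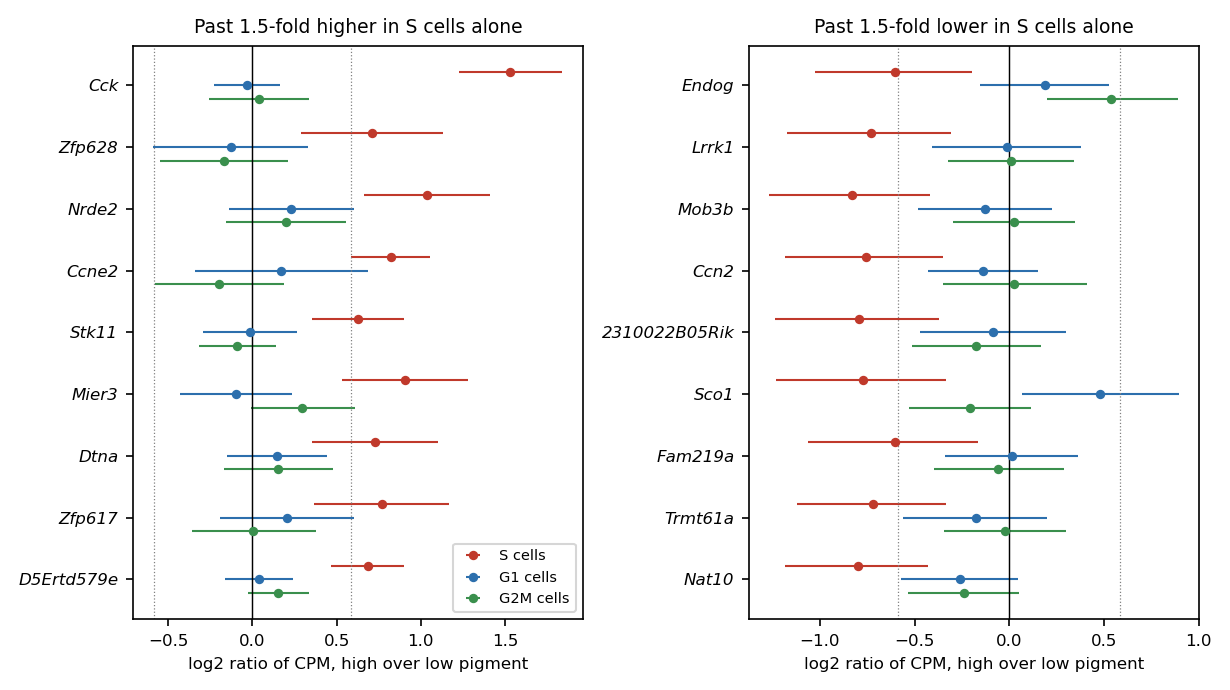
Log2 ratio of CPM, high over low pigment, for genes with the widest gap to the nearer phase on each side among those past 1.5-fold in S cells alone, with 95% counting intervals. The genes were chosen by this gap, so the distance of the S points from the G1 and G2M points follows from the choice. The intervals are wide for genes of few UMIs.

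D5Ertd579e was at 32.3 and 51.9 CPM, 1.61-fold higher (1.38 to 1.87), with ratios of 1.03 in G1 and 1.11 in G2M cells. Stk11, the kinase LKB1 that acts on AMPK, was at 21.2 and 32.7 CPM, 1.55-fold higher (1.28 to 1.87), with ratios of 0.992 and 0.939. Nrde2, an RNA surveillance factor, was at 9.74 and 20 CPM, 2.05-fold higher (1.58 to 2.66). Mier3 was 1.87-fold, Zfp617 1.70-fold, Dtna 1.66-fold and Zfp628 1.64-fold higher, all of them at low levels. With 1 library per phase and group, and phases from the same libraries, the gap between phases was not tested beyond counting error.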

How the data were processed

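Per barcode and gene, the authors deposited raw UMI counts, in 1 matrix for both libraries. Reads had been processed with Cell Ranger 6.1.2 against mm10, per the submitters' processing notes. The cell table that the authors deposited names each cell's library and holds scores for S and G2M gene sets, the percent of mitochondrial and of ribosomal protein UMIs, a phase and a cluster. Which gene sets the scores used is not stated in the labels or headers. In the table a cell was S where its S score was the higher and above 0, with 0 exceptions. The matrix held 5818 barcodes, of which the 4036 cells of the table were used, and 2 barcode sequences occurred in both libraries of the matrix. Cells without a row in that table were not used.

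UMIs were summed over the cells of each library and phase and divided by their total to give CPM. Genes with a mean of at least 10 CPM over the S cells of both libraries were kept, and the smallest sum of a kept gene in the S cells of a single library was 8 UMIs. Ratios carry 95% exact binomial intervals, and a count of 3 UMIs, the limit that a count of 0 allows, stands for 0.241 CPM in low and 0.496 CPM in high pigment S cells. Intervals and limits cover counting error only. The median interval was a factor of 1.18 either way. A gene was taken as past a threshold in S cells alone at 1.5-fold in S cells, less than 25% higher and less than 20% lower, or on the other side, in G1 and G2M cells, with the interval of both gaps clear of 0. The 26 gene lists hold 587 genes of the matrix. The members and lists were chosen with earlier results of these data known. Named genes were the 12 largest and 12 smallest ratios among those with a mean of at least 50 CPM, up to 10 on each side with the widest gaps among the S-alone genes, and up to 3 on each side of each list, with replication, cell cycle, melanin and lineage lists in more detail. Some genes that this rule chose are not reported here. Naa25 and a few comparison genes were named after their values were seen. Promoters came from the RefSeq table of build GRCm38.p6.

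Shares per cell were computed after thinning to 7500 UMIs, which left out no S cell. Phase calls were the authors' and were not thinned. Scrublet, run per library, marked 3 low and 4 high pigment S cells, too few to say that doublets were found, and they were kept. The counting step was tested on simulated data. Alternatives were thinning, the mean of per-cell CPM, phases called again from published gene sets in Scanpy 1.11.5, the median gene set to no difference, marked doublets left out, standardising over 3 bins of the G2M score, other CPM minimums, a looser S-alone rule, and S cells with a G2M score of 0 or less, the last chosen after seeing the data. Analyses used Python 3.11.15, NumPy 2.4.6, SciPy 1.17.1 and pandas 2.3.3. Ribosomal protein genes, Gapdh, Fth1, the class I genes and the histones share sequence with near copies, which makes their counts less certain.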

Additional observations from a re-analysis of the deposited data

Results flagged for a closer look

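Endog and Sco1 were on opposite sides in different phases. The log2 ratio of Endog, high over low pigment, was −0.60 in S cells and 0.54 in G2M cells, and that of Sco1 was −0.77 in S cells and 0.48 in G1 cells. Their 95% counting intervals did not include 0 in either phase, but each phase has 1 library per group and the difference between phases was not tested across samples. Endog had 66 UMIs and Sco1 55 in high pigment S cells. Each met the S-alone rule in 4 of the 7 other settings, and neither did with phases called again.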

How the results depend on the processing

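No paired analysis was possible because each group has 1 library, and no replicate could be left out. The counts of genes past 1.5-fold in S cells, 329 higher and 659 lower, were 682 and 1472 with a minimum of 2 CPM and 94 and 114 with a minimum of 50 CPM, as more or fewer genes entered. In S cells alone 20 genes passed it upward and 18 downward; a minimum of 2 CPM made this 31 upward, and a minimum of 50 CPM left 3 on each side. With the other phases allowed up to 1.5-fold they were 33 and 31, and with phases called again 46 were higher, the cause of which was not tested. Lists with a median at least 25% higher were 2, and 4 with a minimum of 50 CPM, while 4 lists had one at least 20% lower in every setting run. All 24 genes with the largest and smallest ratios stayed past 1.5-fold in every setting run on them. Of the other recomputed values, 210 list medians and 292 gene ratios moved by less than the counting error or spread used as the limit, and 23 and 16 moved by more, with no gene ratio changing side. Medians of lists near no difference did change sign in some settings, among them the checkpoint and cyclin lists. So did the lineage factor median of 0.27 and the mitosis median of 0.18, each of which fell to −0.02 at its lowest. Of the 20 and 18 S-alone genes, 8 and 4 met the rule in thinned cells, 6 and 2 with phases called again, 10 and 15 over strata of the G2M score, and 11 and 9 in S cells with a G2M score of 0 or less. The median counting interval of a gap between phases was 0.32 on the log2 scale to G1 and 0.31 to G2M either way, so smaller gaps were not detectable for a typical gene at this depth.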

Other observations

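Ribosomal protein genes had a lower ratio in S cells than in both other phases in 26 of 30 members, where 26.4% of all measured genes did, and none had a higher one. The differences were small, with a median log2 ratio of −0.05 in S, −0.03 in G1 and 0.03 in G2M cells. Rpl3 was the member with the lowest ratio, at 2165 CPM in low and 1422 in high pigment S cells, 1.52-fold lower (1.49 to 1.56), against 1.5-fold in G1 and 1.44-fold in G2M cells. Of 25 ribosome biogenesis genes 6 were lower and 2 higher in S cells, where 22.2% and 13.6% of all measured genes were. The list median was −0.15. Ppan, which acts in assembly of the large subunit, was 2.58-fold higher (2.02 to 3.30), and Nop56, of the complex that methylates ribosomal RNA, had a log2 ratio of −0.86.

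Protein folding genes were lower in part. Of 20 genes of the unfolded protein response 8 were at least 20% lower in high pigment S cells and 1 higher, with a median of −0.29, against −0.38 in G1 and −0.23 in G2M cells. Hspa5, the main chaperone of the endoplasmic reticulum, was at 1020 and 626 CPM, 1.63-fold lower (1.57 to 1.69), and the exception Ern1, a sensor of unfolded protein, was 1.62-fold higher (1.28 to 2.06). Among cytosolic chaperones 5 of 13 were lower and none higher, led by Hspa8 at 2120 and 1278 CPM, 1.66-fold lower (1.62 to 1.70). Of 21 genes of the ATF4 amino acid response 5 were lower and 2 higher, where 22.2% and 13.6% of all measured genes were. That list was centred near no difference, with a median of −0.005. Slc7a5, a transporter of large neutral amino acids, was at 24.5 and 12.2 CPM, 2.01-fold lower (1.55 to 2.62), against 1.34-fold in G1 and 1.12-fold in G2M cells.

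Of 38 nuclear genes of oxidative phosphorylation 6 were higher and 1 lower, with Cox7a2 at a log2 ratio of 0.51 and Atp5b at −0.39. Among 13 mitochondrially encoded genes 1 was lower, mt-Atp8 at −0.66. For these and the lists below, 13.6% of all measured genes were higher and 22.2% lower by the same limits in S cells. Glycolysis genes were mostly within these limits, with 2 of 17 lower and 1 higher, Eno2 at 1.78-fold (1.32 to 2.40). Matrix and adhesion genes went both ways, 5 of 17 higher and 4 lower. Beside Lgals3, Spp1, which encodes osteopontin, went from 120 to 219 CPM, 1.83-fold higher (1.70 to 1.97), against 1.30-fold in G1 and 1.43-fold in G2M cells, and Sparc from 708 to 1077 CPM, 1.52-fold higher (1.47 to 1.57). Of 5 class I antigen presentation genes 2 were lower and none higher, with H2-K1 at 31.9 and 14.2 CPM, 2.25-fold lower (1.78 to 2.87).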
